A study of Homo sapiens with 6 samples.

Results

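The 44 interferon-stimulated genes and RNA sensors described here were listed by symbol, and a gene counted as measured where a probe set of the platform annotation carried its symbol and no other. Of the 44, 43 were measured, by 72 probe sets, among 19775 genes in all; STAT2 was not analysed here. Total RNA of Caco-2, an established cell line from a human colorectal tumour whose cells can take on enterocyte features, was hybridised to 6 Affymetrix arrays. In 3 of them the cells had received an SDC1 small interfering RNA (siRNA), and in the other 3 a negative control siRNA. The product of SDC1 is syndecan-1, a proteoglycan of the cell surface, and the series asks which transcripts it regulates. Both groups carried a transfected siRNA, and no untransfected cells were analysed here, so a response common to both siRNAs cannot be seen in these arrays. How long the cells were transfected, at which dose and with which siRNA sequence was not stated. Independent replicates are named in the design, without saying that each was a separate culture, so p-values rest on the array-to-array spread alone, and that spread may be technical.

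Cells recognise double-stranded RNA through sensors in the cytoplasm and in endosomes, which switch on type I and type III interferon genes. Secreted interferon then acts through its receptors, Janus kinases and the STAT and IRF transcription factors on a large set of genes whose products modify, bind, cleave or edit RNA, block virus entry and release, and raise antigen presentation. Intestinal epithelial cells are known to answer type III interferon in particular. A transfected siRNA is itself a short double-stranded RNA, and a difference between siRNAs in this response is a familiar concern in silencing experiments.

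All values below are on the log2 scale, with the median of the 6 arrays at 0 for each probe set. Absolute levels had been removed from the deposited table, and only a rough brightness class (a log2 signal of 8 to 16, of 4 to 8, or below 4) could be read from the storage steps of the numbers. A gene's value is the mean of its probe sets in its brightest class. Of the 43 genes, 10 were in the brightest class (ISG15, HERC5, IFITM1, IFITM2, IFITM3, BST2, EIF2AK2, ADAR, IFI6 and EPSTI1), 21 in the middle one and 12 in the dimmest. The dimmest class held genes that interferon is known to induce strongly, among them IFIT1, MX1, MX2, RSAD2, CMPK2, OAS1, IFI44, IFI44L and XAF1. The corresponding shares were 23.3% of these genes and 30.2% of all genes in the brightest class, and 27.9% of these genes and 23.9% of all genes in the dimmest. Of the epithelial and enterocyte markers, 4 of 13 measured were in the brightest class (KRT8, KRT18, EPCAM and CDH1), while KRT20, CDH17, FABP1, APOA1, APOB and SI were in the dimmest. Of 11 leukocyte markers, 0 were in the brightest class and 5, PTPRC included, were in the dimmest. Of 7 fibroblast markers, 2 (COL1A1 and COL1A2) were in the brightest class and 0 in the dimmest. Of 4 endothelial markers, 1 (VWF) was in the brightest class and 1 (KDR) in the dimmest. The groups did not overlap in 5 of 7 fibroblast markers (COL1A2, DCN and THY1 higher, COL3A1 and LUM lower) and in 2 of 4 endothelial ones (CDH5 at 0.37 and VWF at 0.24), where 16.7% of all genes did not; 0 of these markers passed the threshold, and their part in the results below was not tested. In RNA of whole cultures, fewer cells expressing a gene and less RNA per cell cannot be told apart.

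SDC1 was lower on every SDC1 siRNA array, at -0.50, -0.62 and -0.34, against 0.37, 0.35 and 0.35 with control siRNA. SDC1 fell by 0.84 ± 0.08 (log2, standard error), with a limma adjusted p = 0.0238 over all genes, and this call was lost when any 1 array was left out (adjusted p from 0.0615 to 0.326).

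With SDC1 siRNA, 0 of the 43 interferon-stimulated genes passed a limma adjusted p of 0.05, in either direction, where 0.0253% of all genes did (0.0101% higher, 0.0152% lower). PSMB9, a catalytic subunit of the immunoproteasome, came nearest, at -0.49 ± 0.08 (adjusted p = 0.109). The differences lay between -0.50 for IFIT1, which encodes a protein that binds foreign RNA at its 5′ end, and 0.31 for ISG15, the ubiquitin-like modifier, and 25 were above 0 and 18 below (58.1% above 0, against 52.1% of all genes). Their median was 0.02, beside 0.006 over all genes, and the median absolute difference was 0.099, beside 0.079. At an unadjusted p under 0.05 there were 7 genes (16.3%, against 10.6% of all genes), namely 3 above 0 (ISG15, OASL and HERC5; 5.43% of all genes) and 4 below (PSMB9, IFIT1, EPSTI1 and USP18; 5.19% of all genes). In 12 genes (27.9%) the 3 arrays of one group lay entirely above the 3 of the other, where 16.7% of all genes did so. Of these, 7 were higher with SDC1 siRNA (ISG15, HERC5, IFITM2, RSAD2, OAS2, OASL and ISG20; 8.26% of all genes) and 5 were lower (USP18, DTX3L, IFIT1, PSMB9 and EPSTI1; 8.47% of all genes). For each of these 12 the exact permutation test (two-sided) gave p = 0.1, which is the smallest p that 3 arrays a group allow. The members and lists were chosen with earlier results of these data known, so these shares are a description.

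**Figure D1:**
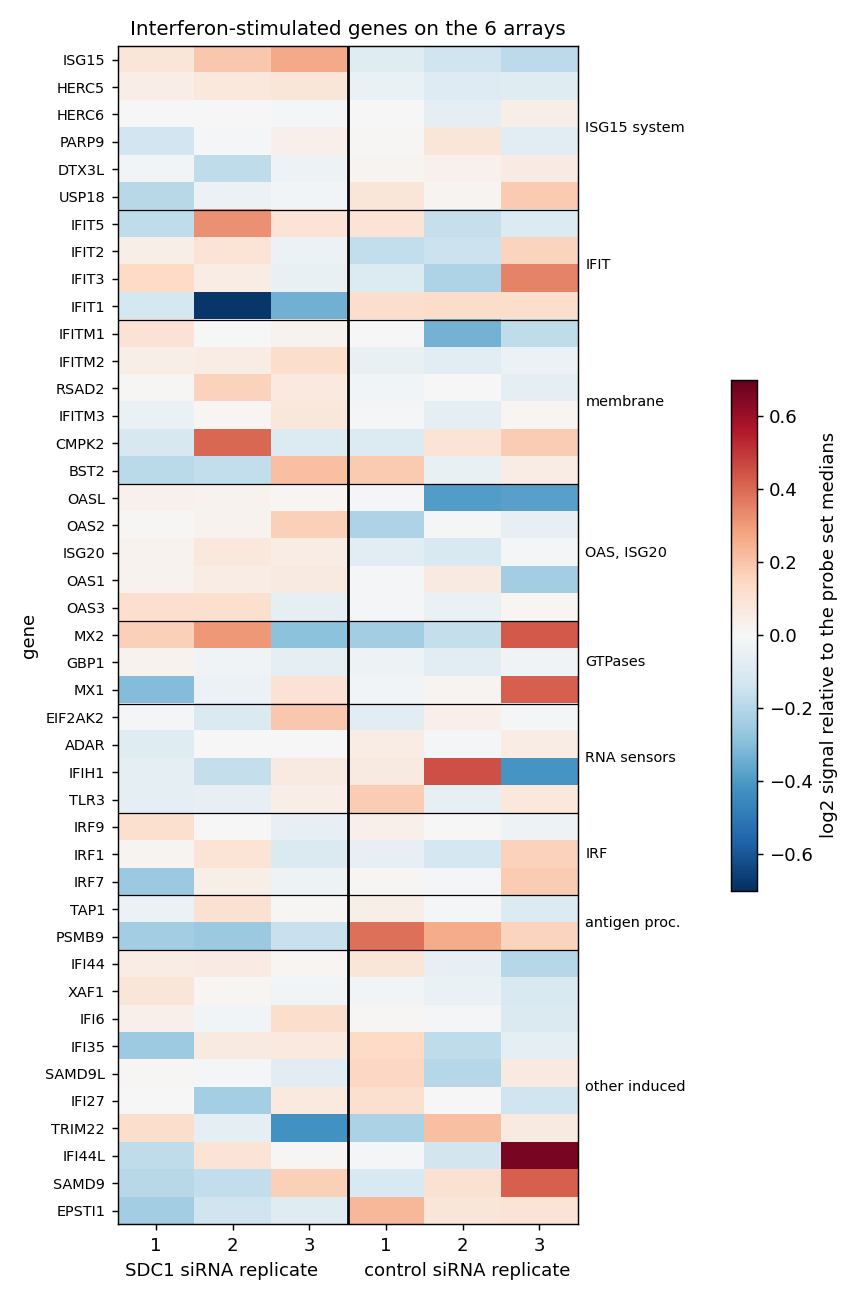
Log2 signal of the 43 genes (rows, grouped by role) relative to the probe set medians on each array (columns, SDC1 siRNA replicates 1 to 3 left of control siRNA replicates 1 to 3). Colour runs from blue (below the median) to red (above); IFIT1 is darkest blue in SDC1 siRNA replicate 2 (-0.68) and IFI44L darkest red in control siRNA replicate 3 (0.67).

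The intervals of the fit bound the difference in array signal. A level above background was not shown for any gene, so a narrow interval does not by itself bound the difference in transcript. This limit weighs most on the 12 genes of the dimmest class, IFIT1, MX1, RSAD2 and OAS1 among them. It holds for the middle class too, where 6 of the 11 leukocyte markers stood. The 95% interval of the fit lay inside a 2-fold change in either direction for 43 of the 43 genes and inside a 1.5-fold change for 40. The 3 whose interval reached past 1.5-fold were IFIT1 (-0.80 to -0.21), PSMB9 (-0.67 to -0.30) and IFI44L (-0.63 to 0.23), each on the lower side. Dim genes were measured less precisely. The median within-group SD was 0.212 for the 12 genes of the dimmest class, 0.0923 for the 21 of the middle class and 0.0684 for the 10 of the brightest, beside 0.13, 0.112 and 0.081 for all genes of the same classes.

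**Figure D2:**
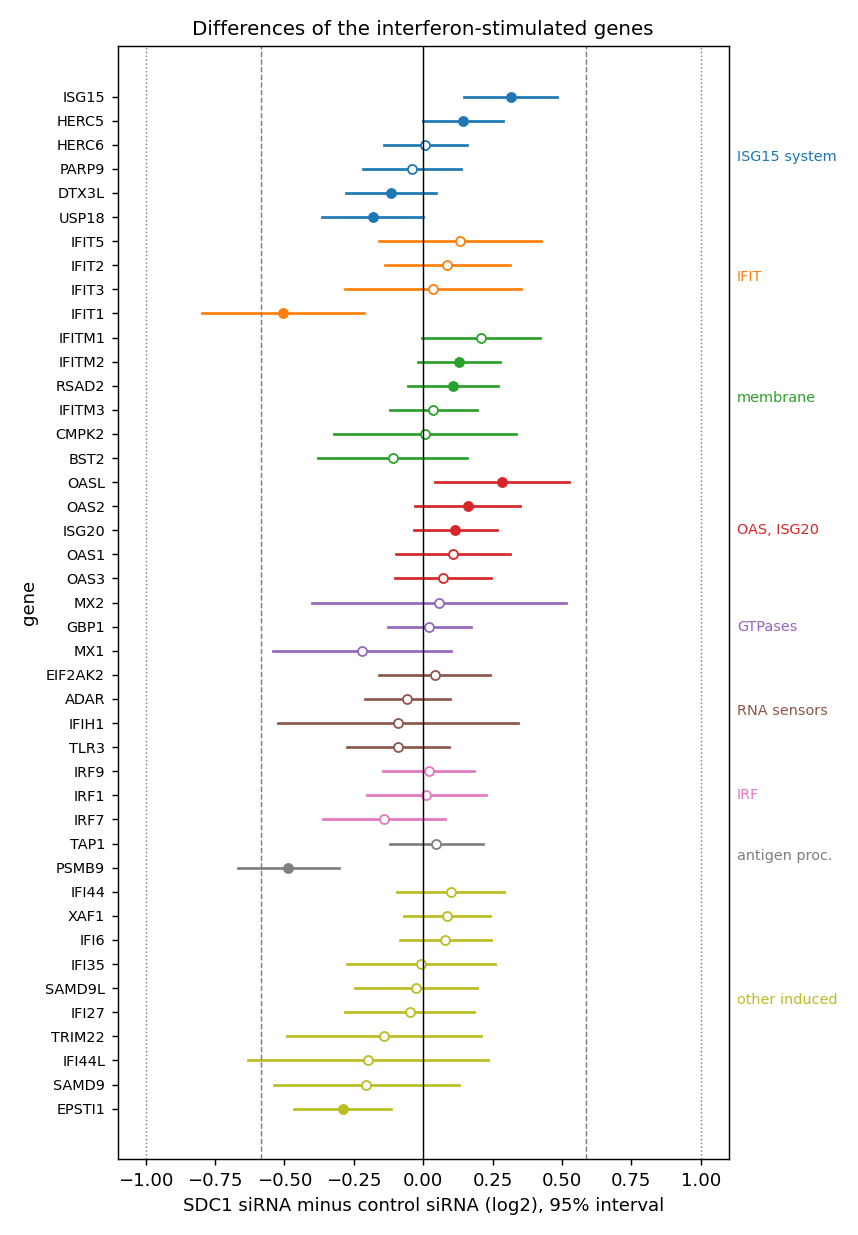
Difference between SDC1 siRNA and control siRNA (log2, x axis) for each of the 43 genes, grouped and coloured by role, with 95% intervals of the limma fit; filled points mark the 12 genes whose groups do not overlap. Dashed lines stand at 1.5-fold and dotted lines at 2-fold, and no interval reaches the dotted lines.

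What these genes share in sequence was searched for in their promoters. Members were listed as interferon-stimulated genes and RNA sensors, so a high share of interferon response elements describes the list and is not a result of these arrays. Interferon-stimulated response elements (ISREs) bind the STAT and IRF complex formed after interferon signalling, and gamma-activated sites (GAS) bind STAT dimers. Windows from 250 bases before to 50 after each gene start were searched on both strands for the ISRE letters, GAAA, any 2 bases and GAAA again, and for the GAS letters, TTC, any 3 bases and GAA (RefSeq, GRCh38.p14). Of the 43 genes, 35 had a window, and 25 of these (71.4%) held the ISRE letters, against 4.38% of all 27305 genes in the table. The GAS letters stood in 11 (31.4%), against 9.38%, and in 5 of those genes a GAS match overlapped an ISRE match. A match is only the presence of these letters. The ISRE letters stood in 14 of 20 genes above 0 with SDC1 siRNA (70.0%) and in 11 of 15 below 0 (73.3%). The stretches printed next are those of ISG15 and HERC5, which did not overlap and were higher with SDC1 siRNA, of IFIT1 and EPSTI1, which did not overlap and were lower, and of TAP1, which starts next to PSMB9 and runs away from it. The window of PSMB9 itself, the gene with the lowest p, held neither the ISRE nor the GAS letters. That window reached only 250 bases before the PSMB9 start (chr6:32854192, plus strand). The ISRE letters of TAP1 lie between the PSMB9 and TAP1 starts, farther from PSMB9 than its window reached. The lower-case bases flank the ISRE letters, which are in capitals on whichever strand they read, and each stretch is written 5′ to 3′ on the strand of the gene. ISG15 (chr1:1013359-1013424, plus strand) holds 2 overlapping matches, the last ending 98 bases before the gene start. HERC5 (chr4:88456969-88457079, plus strand) has 3, IFIT1 (chr10:89392482-89392554, plus strand) 2, EPSTI1 (chr13:42992257-42992316, minus strand) 1 and TAP1 (chr6:32853798-32853863, minus strand) 2.
ISG15: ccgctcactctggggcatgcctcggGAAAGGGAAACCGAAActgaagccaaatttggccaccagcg
HERC5: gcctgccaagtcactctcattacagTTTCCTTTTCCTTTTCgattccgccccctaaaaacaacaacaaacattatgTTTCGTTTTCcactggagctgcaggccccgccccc
IFIT1: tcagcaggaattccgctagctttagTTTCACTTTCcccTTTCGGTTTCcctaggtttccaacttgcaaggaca
EPSTI1: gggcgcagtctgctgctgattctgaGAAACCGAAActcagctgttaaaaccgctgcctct
TAP1: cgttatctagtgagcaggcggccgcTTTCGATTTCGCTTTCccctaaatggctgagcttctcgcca
Among genes with a window whose groups did not overlap, 4 of 4 that were higher with SDC1 siRNA and 3 of 4 that were lower held the ISRE letters, as did 18 of 27 whose groups overlapped.

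Among genes of the sensing step itself, 4 sensors or RNA modifiers were measured and 0 passed. With 0.0253% of all genes passing, a count of 0 says little about a group this small, here and in the groups below. IFIH1 encodes MDA5, the sensor of long double-stranded RNA. It was at -0.06, -0.17 and 0.07 with SDC1 siRNA, against 0.06, 0.45 and -0.41 with control siRNA. The control arrays alone thus spanned more than all SDC1 siRNA arrays, and the difference was -0.09 ± 0.19 (limma adjusted p = 0.913). It turned to 0.12 without control replicate 2 and to -0.31 without control replicate 3. EIF2AK2 encodes PKR, the kinase that halts translation on binding double-stranded RNA. It was at -0.01, -0.10 and 0.19 with SDC1 siRNA, against -0.07, 0.04 and -0.01 with control siRNA, and the groups overlapped. Its 3 probe sets gave 0.04, 0.04 and 0.12. TLR3, the endosomal receptor of double-stranded RNA, was at -0.07, -0.06 and 0.04 with SDC1 siRNA, against 0.18, -0.05 and 0.07 with control siRNA, a difference of -0.09 ± 0.08. ADAR edits adenosines in double-stranded RNA and so keeps cellular RNA from being sensed. It was in the brightest class at -0.08, -0.004 and 0.004 with SDC1 siRNA, against 0.05, -0.02 and 0.05 with control siRNA. Its difference of -0.06 ± 0.07 had a 95% interval from -0.21 to 0.10, and the groups overlapped in TLR3 and ADAR alike.

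Other genes of RNA and DNA sensing were listed apart from these 4. Of 20 measured, 11 stood above 0 (55%, against 52.1% of all genes) and 9 under it (median 0.04). In limma, 0 passed an adjusted p of 0.05 (0.0253% of all genes did) or an unadjusted p of 0.05 (10.6% of all genes did). In 3 (15%, against 16.7% of all genes) the groups did not overlap, all higher with SDC1 siRNA (8.26% of all genes). The lowest p belonged to DHX58, which encodes LGP2, the partner of the other RIG-I-like receptors, at 0.25 ± 0.12 (limma adjusted p = 0.51). DHX58 was at 0.01, 0.04 and -0.01 with SDC1 siRNA, against 0.06, -0.37 and -0.40 with control siRNA, so the difference rested on control replicates 2 and 3. RIGI, the sensor of RNA with a 5′ triphosphate, was in the brightest class at 0.03, 0.20 and 0.07 with SDC1 siRNA, against -0.06, -0.07 and -0.03 with control siRNA. The groups did not overlap, with a difference of 0.15 ± 0.07 (limma adjusted p = 0.513). MYD88, the adaptor of most Toll-like receptors, was at 0.13 ± 0.06, and MAVS, the mitochondrial adaptor of RIG-I and MDA5, at 0.09 ± 0.08.

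The interferon genes themselves showed no difference beyond their spread. IFNB1, the type I interferon made first after sensing, was at -0.29, 0.17 and 0.04 with SDC1 siRNA, against -0.04, -0.12 and 0.18 with control siRNA. IFNL1, a type III interferon, was at -0.03, 0 and 0 with SDC1 siRNA, against 0.07, 0.09 and -0.49 with control siRNA. Both genes were in the dimmest class and overlapped between the groups. Of 21 interferon, receptor and JAK-STAT genes measured, 9 were above 0 and 12 below (median -0.03) and 0 passed. In 6 (28.6%) the unadjusted p was under 0.05, against 10.6% of all genes, and the 6 went both ways. STAT3, which also serves cytokines of the interleukin-6 family, was at 0.13, 0.12 and 0.35 with SDC1 siRNA, against -0.14, -0.25 and -0.10 with control siRNA (difference 0.36 ± 0.09, limma adjusted p = 0.218). IL10RB, a shared chain of the receptors of type III interferon and interleukin-10, was at 0.33 ± 0.10 (limma adjusted p = 0.3). PTPN2, a phosphatase that switches off JAK-STAT signalling, was at -0.28 ± 0.07 (limma adjusted p = 0.257). The receptor chains did not go together: IFNGR1 was at 0.19 ± 0.07, IFNAR1 at -0.29 ± 0.11, IFNAR2 at 0.09 ± 0.07 and IFNLR1 at 0.09 ± 0.08.

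Of the transcription factors, 3 were measured, IRF1, IRF7 and IRF9, and 0 passed. IRF9, the DNA-binding part of the complex that reads ISREs, was at 0.11, 0.002 and -0.06 with SDC1 siRNA, against 0.03, -0.002 and -0.03 with control siRNA (difference 0.02 ± 0.07). IRF7 amplifies type I interferon production. It was at -0.26, 0.04 and -0.03 with SDC1 siRNA, against 0.005, -0.005 and 0.18 with control siRNA, a difference of -0.14 ± 0.10. SDC1 siRNA replicate 1 was the low array there, and without it the difference was -0.05. IRF1, an activator of antigen presentation genes, was at 0.02, 0.09 and -0.10 with SDC1 siRNA, against -0.06, -0.12 and 0.16 with control siRNA. Its 2 probe sets went opposite ways, at 0.08 and -0.06. The groups overlapped in all 3 factors.

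The ISG15 system was split between directions. ISG15, which is attached to newly made proteins after interferon, was at 0.09, 0.19 and 0.26 with SDC1 siRNA, against -0.09, -0.14 and -0.18 with control siRNA. All SDC1 siRNA arrays lay above all control arrays, and the difference was 0.31 ± 0.07 (1.24-fold, limma adjusted p = 0.206). It lay between 0.27 and 0.36 when any 1 array was left out, and rested on 1 probe set of a type that can share sequence with other transcripts (_s_at). HERC5, the main ligase that attaches ISG15 in human cells, was at 0.05, 0.08 and 0.09 with SDC1 siRNA, against -0.05, -0.09 and -0.09 with control siRNA. Replicates of HERC5 were close, the groups did not overlap, and the difference was 0.14 ± 0.06 (limma adjusted p = 0.47). USP18, the protease that removes ISG15 and damps the type I receptor, stood on the other side. It was at -0.20, -0.04 and -0.02 with SDC1 siRNA, against 0.09, 0.02 and 0.18 with control siRNA, a difference of -0.18 ± 0.08 (limma adjusted p = 0.47). DTX3L, a ubiquitin ligase that works with PARP9, was at -0.02, -0.18 and -0.04 with SDC1 siRNA, against 0.02, 0.03 and 0.06 with control siRNA. DTX3L and PARP9 are transcribed away from each other from neighbouring starts, and both windows held ISRE letters; PARP9 was at -0.04 ± 0.08 and DTX3L at -0.12 ± 0.07. HERC6, a relative of HERC5, was at 0.008 ± 0.065.

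The 4 members of the IFIT family, whose proteins bind the ends of foreign RNA and block its translation, stood on both sides of 0. Whether they differed from each other was not tested. IFIT1 was at -0.12, -0.68 and -0.33 with SDC1 siRNA, against 0.13, 0.13 and 0.12 with control siRNA. The control arrays of IFIT1 were nearly equal (SD 0.0047) and the SDC1 siRNA arrays lay below them with an SD of 0.282, so the spread was within the SDC1 siRNA group. Its difference was -0.50 ± 0.13 (limma adjusted p = 0.245), and without SDC1 siRNA replicate 2 it was -0.35. IFIT1 was measured by 1 dim probe set. IFIT2, a partner of IFIT1, was at 0.04, 0.09 and -0.04 with SDC1 siRNA, against -0.17, -0.15 and 0.16 with control siRNA (difference 0.09 ± 0.10). IFIT3, which stabilises IFIT1, was at 0.14, 0.05 and -0.05 with SDC1 siRNA, against -0.10, -0.22 and 0.35 with control siRNA. The second, dim probe set of IFIT3 gave -0.41 ± 0.14 with groups that did not overlap, so the gene stood at 0.03 by its brighter probe set and at -0.19 by the mean of both. The groups overlapped in IFIT2, in the brighter IFIT3 probe set and in IFIT5, a binder of RNA with a 5′ triphosphate that was at 0.13 ± 0.13.

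The OAS family and ISG20 stood above 0 in 5 of 5 genes, where 52.1% of all genes did, with differences from 0.07 to 0.28, and 0 passed. OAS enzymes make 2′-5′ oligoadenylates on binding double-stranded RNA, and ISG20 is a 3′ to 5′ exonuclease. OASL, which lacks the synthetase activity, was at 0.03, 0.02 and 0.01 with SDC1 siRNA, against -0.01, -0.39 and -0.38 with control siRNA. The groups did not overlap, but control replicate 1 lay close to the SDC1 siRNA arrays. Its difference was 0.28 ± 0.11 (limma adjusted p = 0.4), from an _s_at probe set, and the other, dim probe set gave 0.03 ± 0.09. OAS2 was at 0.008, 0.02 and 0.17 with SDC1 siRNA, against -0.22, -0.008 and -0.06 with control siRNA, a difference of 0.16 ± 0.08. Of 2 dim OAS2 probe sets, one gave 0.16 ± 0.13 and the other -0.12 ± 0.11. OAS1 was at 0.02, 0.05 and 0.06 with SDC1 siRNA, against -0.008, 0.07 and -0.24 with control siRNA. Without control replicate 3 the OAS1 difference was 0.02, against 0.11 with all arrays. OAS3 was at 0.07 ± 0.08 and ISG20 at 0.12 ± 0.07.

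Of 6 genes grouped with membrane restriction, 5 were above 0, where 52.1% of all genes were, and 0 passed. The IFITM proteins block fusion of viruses with the cell. IFITM1 was at 0.10, -0.004 and 0.02 with SDC1 siRNA, against 0.004, -0.33 and -0.18 with control siRNA (difference 0.21 ± 0.09, limma adjusted p = 0.483), and the groups overlapped narrowly. IFITM2 was at 0.04, 0.05 and 0.13 with SDC1 siRNA, against -0.05, -0.07 and -0.04 with control siRNA. The IFITM2 groups did not overlap, with a difference of 0.13 ± 0.06. IFITM3 was at 0.04 ± 0.07. The 3 IFITM genes are close copies, and each was measured by 1 probe set of a shared sequence type (_x_at or _s_at), so their signals may not be separate. A probe set annotated to both IFITM1 and IFITM2, which the choice of members left out, was at 0.17 ± 0.09. BST2, or tetherin, which holds budding virus at the cell surface, was at -0.19, -0.17 and 0.21 with SDC1 siRNA, against 0.18, -0.05 and 0.05 with control siRNA. Replicate 3 of SDC1 siRNA was its high array, and without it the BST2 difference was -0.24 in place of -0.11. RSAD2 encodes viperin, which makes a chain-terminating nucleotide. It was at 0.006, 0.16 and 0.07 with SDC1 siRNA, against -0.02, -0.002 and -0.07 with control siRNA (difference 0.11 ± 0.07). The RSAD2 probe sets, both dim, gave 0.17 ± 0.08 without overlap of the groups and 0.04 ± 0.10 with overlap. CMPK2, a nucleotide kinase, was at 0.008 ± 0.143, and at -0.16 without SDC1 siRNA replicate 2.

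MX1 and MX2 are dynamin-like GTPases that trap viral particles. MX1 was at -0.30, -0.04 and 0.10 with SDC1 siRNA, against -0.02, 0.02 and 0.42 with control siRNA, a difference of -0.22 ± 0.14 (limma adjusted p = 0.63). MX2 was at 0.17, 0.30 and -0.29 with SDC1 siRNA, against -0.24, -0.17 and 0.43 with control siRNA. In both genes control replicate 3 was the highest of the 6 arrays, the groups overlapped, and without it MX1 was at -0.08 and MX2 at 0.27. Each rested on 1 probe set in the dimmest class. GBP1, a large GTPase induced mainly by interferon-gamma, was at 0.02 ± 0.06, and its 4 probe sets ran from -0.11 to 0.08.

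PSMB9, of the peptide processing group, held the lowest limma p of the 43. PSMB9 was at -0.24, -0.26 and -0.15 with SDC1 siRNA, against 0.39, 0.26 and 0.15 with control siRNA. All SDC1 siRNA arrays lay below all control arrays, with a gap wider than the spread within either group. The difference was -0.49 ± 0.08, a 1.4-fold reduction, and ranked 42nd by p among all 19775 genes. With array weights, estimated from these same arrays, it was -0.54 with a limma adjusted p = 0.044, where 0.197% of all genes passed. The adjusted p lay between 0.174 and 0.436 when any 1 array was left out. TAP1, a subunit of the peptide transporter into the endoplasmic reticulum, starts 488 bases from PSMB9 and runs the other way. TAP1 was at -0.04, 0.11 and 0.01 with SDC1 siRNA, against 0.04, -0.01 and -0.10 with control siRNA, a difference of 0.05 ± 0.07 with overlapping groups. The other 2 inducible subunits of the immunoproteasome did not differ beyond their spread: PSMB8 was at 0.04 ± 0.08 and PSMB10 at -0.05 ± 0.09.

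In the wider list of antigen presentation, 14 genes were measured, 7 above 0 and 7 below, and 0 passed (0.0253% of all genes did). In 3 (21.4%, against 10.6% of all genes) the limma unadjusted p was under 0.05, 1 higher and 2 lower. The groups did not overlap in 3 (21.4%, against 16.7% of all genes), 1 higher and 2 lower. ERAP2, an aminopeptidase that trims peptides in the endoplasmic reticulum, was at -0.29, -0.28 and -0.03 with SDC1 siRNA, against 0.33, 0.03 and 0.47 with control siRNA. Its difference of -0.48 ± 0.12 (limma adjusted p = 0.251) was close in size to that of PSMB9, with a wider spread among the control arrays. ERAP1, the related aminopeptidase, was at -0.17 ± 0.07 (limma adjusted p = 0.436), while TAP2, the partner of TAP1, was at 0.22 ± 0.08 (limma adjusted p = 0.36). The class I heavy chains and their light chain were near 0, with HLA-B at 0.09 ± 0.08, HLA-C at 0.10 ± 0.07, HLA-E at -0.001 ± 0.065 and B2M at -0.04 ± 0.07, and all overlapped between the groups.

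Of the remaining 10 induced genes, 3 were above 0 (52.1% of all genes were) and 7 below, and 0 passed. Of the 7 below 0, 5 (IFI27, IFI35, IFI44L, SAMD9L and TRIM22) had the other sign in at least 1 of the 6 fits that left out an array. EPSTI1, an epithelial gene found through its response to stromal cells, was at -0.24, -0.14 and -0.08 with SDC1 siRNA, against 0.23, 0.08 and 0.10 with control siRNA. Its groups did not overlap, and its 2 probe sets gave -0.29 and -0.34. The EPSTI1 difference was -0.29 ± 0.08 (limma adjusted p = 0.261). SAMD9, a factor that blocks poxviruses, was at -0.21 ± 0.15 (-0.07 without control replicate 3), and its relative SAMD9L at -0.03 ± 0.10. IFI44L was at -0.20 ± 0.19, and turned to 0.04 without control replicate 3. TRIM22 was at -0.14 ± 0.15, IFI27 at -0.05 ± 0.10 and IFI35 at -0.008 ± 0.116. Above 0 were IFI44 at 0.10 ± 0.08, XAF1 at 0.08 ± 0.07 and IFI6, a mitochondrial and endoplasmic reticulum protein, at 0.08 ± 0.07. The 3 probe sets of XAF1 ran from -0.22 to 0.36.

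Probe sets of 1 gene did not always agree. Of the 72 probe sets, 40 were above 0 and 32 below, and 0 passed when each was tested singly among 54613 (lowest limma adjusted p = 0.315), as did 0% of all probe sets. An unadjusted p under 0.05 was found for 8 of the 72, and for 8.33% of all probe sets. Several probe sets measured 21 of the genes. In 8 of these they differed in sign, and in 13 they shared one. The like share over all genes was not counted. Both EPSTI1 probe sets and both ISG20 probe sets went one way, whereas those of GBP1, IFIT3, IFIT5, IRF1, OAS2, SAMD9L, TLR3 and XAF1 did not.

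**Figure D3:**
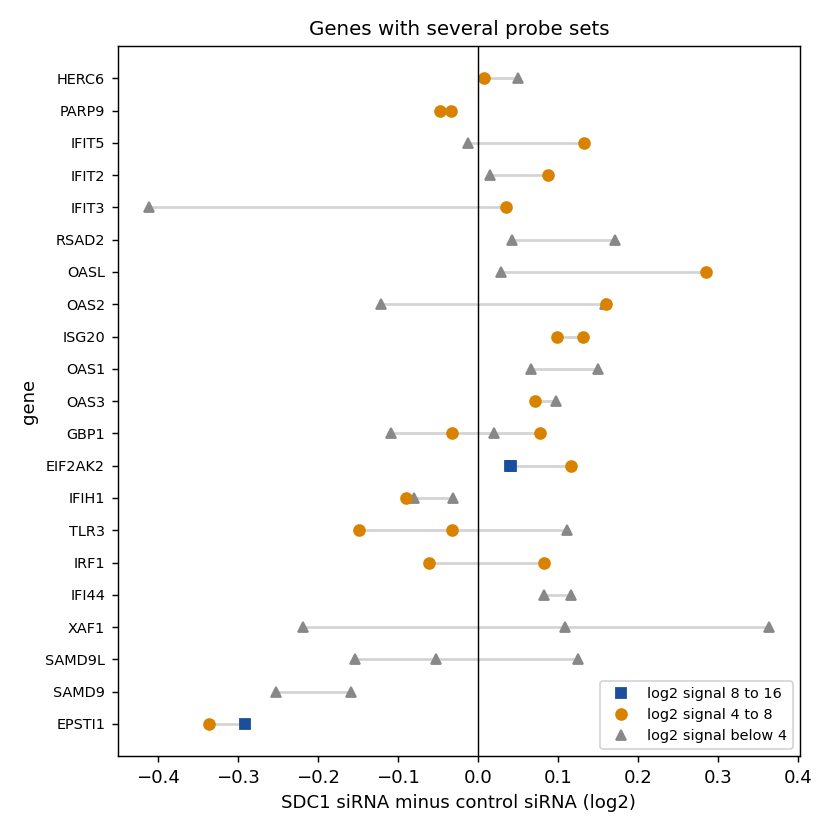
Difference between SDC1 siRNA and control siRNA (log2, x axis) of each probe set of the 21 genes with several, joined by a grey line; squares, circles and triangles mark brightness classes of 8 to 16, 4 to 8 and below 4. The widest spans belong to genes with a dim probe set, XAF1 (-0.22 to 0.36) and IFIT3 (-0.41 to 0.03).

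Which array was the highest or lowest was also counted for each gene. Control siRNA replicate 3 was the highest of the 6 arrays for 12 of the 43 genes (27.9%, against 16.6% of all genes), namely MX1, MX2, IFI44L, SAMD9, IFIT2, IFIT3, USP18, HERC6, DTX3L, ADAR, IRF1 and IRF7. SDC1 siRNA replicate 1 was the lowest for 13 (30.2%, against 19.2% of all genes), among them USP18, MX1, IRF7, IFI44L, SAMD9, ADAR and EPSTI1. These genes were picked out after their values were seen. The same control array was the lowest of the 6 for 8 others (18.6%, against 17.3% of all genes), namely ISG15, RSAD2, OAS1, IFIH1, TAP1, IFI6, IFI44 and XAF1. It was thus not high in every gene of the group. The median of the 43 genes per array ran from 0.002 to 0.013 with SDC1 siRNA and from -0.048 to 0.011 with control siRNA. The median of -0.048 was that of control siRNA replicate 2, the array with the lowest array weight (0.47). That array was the lowest for 11 of the 43 genes (25.6%, against 24.5% of all genes).

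A further 46 interferon-stimulated genes, listed apart from the 43, were measured. There 24 stood above 0 and 22 under it (median 0.009), and 0 passed. In 5 (10.9%) the unadjusted p was under 0.05, against 10.6% of all genes. In 10 (21.7%, against 16.7% of all genes) the groups did not overlap, 7 higher and 3 lower (8.26% and 8.47% of all genes). SP100, a nuclear body protein, was at -0.11, -0.14 and -0.23 with SDC1 siRNA, against 0.11, 0.30 and 0.12 with control siRNA (difference -0.34 ± 0.08, limma adjusted p = 0.2). LY6E, a surface protein that restricts coronavirus entry, was at -0.24 ± 0.07 (limma adjusted p = 0.287), and SHISA5, a protein of the endoplasmic reticulum, at 0.22 ± 0.07 (limma adjusted p = 0.317). The chemokine CXCL10, a sensitive marker of interferon action, was at 0.11, -0.003 and 0.17 with SDC1 siRNA, against 0.003, -0.08 and -0.16 with control siRNA. CXCL10 was measured by 1 probe set of the dimmest class. Its groups overlapped narrowly, and the difference was 0.17 ± 0.08 (limma adjusted p = 0.49).

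**Figure D4:**
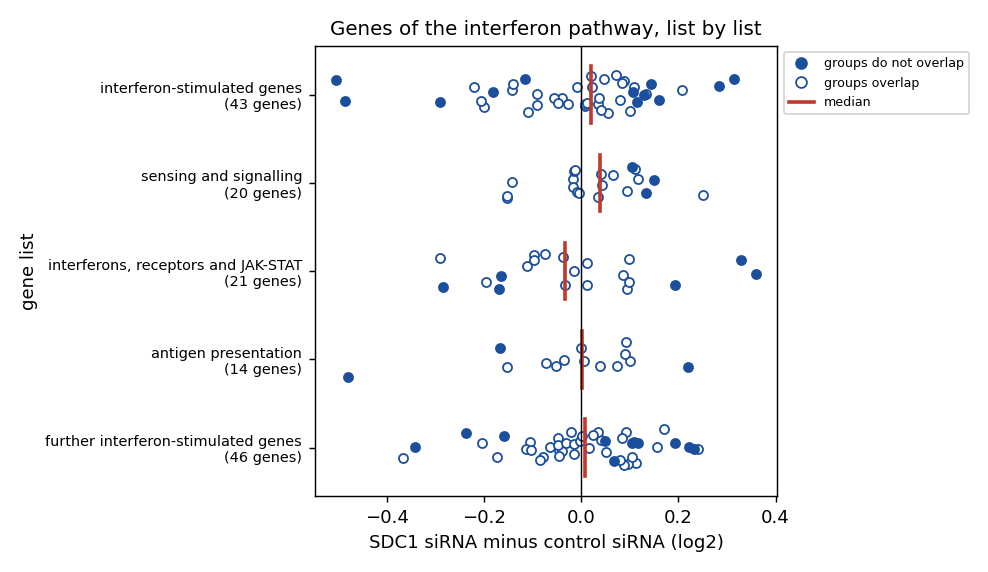
Difference between SDC1 siRNA and control siRNA (log2, x axis) of each gene in the 43 interferon-stimulated genes and in 4 further lists (rows); filled points mark genes whose groups do not overlap and red bars the list medians. The medians lie between -0.03 and 0.04, and each list has filled points, on both sides of 0 except in the sensing list.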

How the data were processed

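The deposited values are log2 signals from RMA, a tool named in the submitters' processing notes with no version. Every probe set of the deposited table had a median of 0 over the 6 arrays (54675 of 54675, within 1e-06). Such centring keeps differences and removes levels, so no filter on level was applied. Rough brightness classes were read from the single-precision steps that the values keep, and a probe set on both sides of a bound was given the lower class.

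Probe sets with 1 gene symbol in the platform annotation (41091) were averaged into 19775 genes over each gene's brightest class. Symbols were updated through Entrez identifiers. The groups were tested in R 4.3.3 with limma 3.58.1 (lmFit and eBayes, group as the only term), with Benjamini-Hochberg adjustment over all genes and a threshold of 0.05. Differences are SDC1 siRNA minus control siRNA, and errors are moderated standard errors unless given as SD. The number of arrays limits the precision. The fit was also run on simulated arrays with known changes, as a self-test of the code. How often a change of the size seen here would pass is not given here.

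The genes and all lists were chosen with earlier results of these data known, and the averaging over the brightest class was taken over from an earlier treatment of the same data. Every member was named. Values per array were given for the 6 members with the lowest p on each side of 0 and for a set of sensors, factors and classical induced genes, and 3 genes with the lowest p were named per pathway list. Other genes of those lists, and array values of other members, were added after their values were seen. Promoters came from RefSeq (GRCh38.p14). Any pair of arrays had at most 52 of 19775 gene values in common.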

Additional observations from a re-analysis of the deposited data

How the results depend on the processing

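In 15 alternative settings, 0 of the genes measured passed the threshold except with array weights, where 1 did (PSMB9, -0.54). All 43 were measured except without _x_at and _s_at probe sets (33) and at brightness class 4 or higher (31). Few of all genes passed either, so a count of 0 says little about these genes. At most 1 of 19775 passed with 1 array left out. With array weights 39 of 19775 passed, and at brightness class 4 or higher 11 of 15058. The replicate numbers did not pair the arrays (correlations of same-numbered deviations of -0.01, -0.26 and -0.11). With the number as a replicate block, 0 of 19775 genes passed, SDC1 included (-0.84, limma adjusted p = 0.0929). SDC1 also missed the threshold after a repeated quantile normalization (-0.90, adjusted p = 0.083) and when each gene took its probe set of highest centred mean (-0.83, adjusted p = 0.0994). With 1 array left out SDC1 lay between -0.92 and -0.78, and the median of the 43 genes between 0.0065 and 0.043. The mean of all probe sets turned GBP1 to -0.011 and IFIT3 to -0.19, and leaving out _x_at and _s_at probe sets turned GBP1 to -0.044. The highest centred mean turned GBP1 to -0.11, IRF1 to -0.060, OAS2 to -0.12, SAMD9L to 0.13 and XAF1 to -0.22. Leaving out 1 array turned the sign of 15 genes, whose differences then lay between these limits: CMPK2 -0.16 and 0.097, EIF2AK2 -0.040 and 0.10, GBP1 -0.00031 and 0.044, HERC6 -0.020 and 0.032, IFI27 -0.11 and 0.042, IFI35 -0.080 and 0.10, IFI44L -0.35 and 0.044, IFIH1 -0.31 and 0.12, IFIT3 -0.079 and 0.20, IRF1 -0.046 and 0.094, IRF9 -0.027 and 0.058, MX2 -0.069 and 0.27, PARP9 -0.080 and 0.0084, SAMD9L -0.13 and 0.045, and TRIM22 -0.26 and 0.011. The cause of these turns was not tested. Genes in the dimmest brightness class had the widest spread.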
